A study of Homo sapiens with 16 samples.

Results

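Interferon-stimulated genes are the genes that a cell transcribes more strongly after it has received an interferon signal, and most of their products act against viruses. A list of 44 named members of this class was followed here. The list, the roles used below and the other gene lists were chosen with earlier results of these data known. All 44 were found by gene symbol among the 23459 genes of the deposited count table, and 35 of them had enough reads to be tested. The RNA came from IMR5-75 and Be(2)-C, established human neuroblastoma lines that both carry amplified MYCN and are clonal derivatives of older lines. Neuroblastoma is a childhood tumour of the sympathetic nervous system.

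Treatment of IMR5-75 was with 1 µM DAC over 72 h, with 1 µM EPZ-6438 over 96 h, with the 2 drugs combined at these doses and times, or with the solvent DMSO. The regimens for Be(2)-C were the same. DAC (decitabine) is a cytidine analogue that is built into DNA and traps DNA methyltransferases, so that methylation is lost as cells divide. EPZ-6438 (tazemetostat) inhibits EZH2, the enzyme that methylates histone H3 at lysine 27 in silenced chromatin. Each of the 8 groups had 2 libraries, 16 in all. Nothing in the labels says that the libraries of a group came from separate cultures, so the p-values rest on the spread between libraries of a group, and that spread may be technical.

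Type I and type III interferons bind receptors at the cell surface, and the kinases JAK1 and TYK2 then phosphorylate STAT proteins, STAT2 among them. STAT2 joins IRF9 in the ISGF3 complex, which enters the nucleus and binds the interferon-stimulated response element in the promoters of the target genes. STAT2, IRF9 and IRF7 are themselves interferon-stimulated, and ISG15, a ubiquitin-like protein, and USP18, which removes ISG15 and blocks the receptor, are among the best known targets.

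The libraries held between 9539557 and 14032155 counts in genes. Levels are given as CPM, reads of a gene scaled to a common library size, after TMM scaling, on which 3 counts equal 0.206 to 0.315 CPM depending on the library, and they are compared within a gene, never between genes. Changes are log2 ratios with their standard errors from edgeR's quasi-likelihood test, a change counts as called where p, adjusted by Benjamini-Hochberg over all 15967 genes tested, was below 0.05, and "rose" and "fell" are used of called changes alone. DNMT1, a target of DAC, had 242 and 220 CPM under DAC and 203 and 187 CPM under both drugs in IMR5-75, against 328 and 303 CPM in DMSO. DNMT1 in Be(2)-C had 239 and 212 CPM under DAC and 167 and 187 CPM under both drugs, against 251 and 258 CPM in DMSO. EZH2, the target of EPZ-6438, had 171 and 170 CPM under EPZ-6438 in IMR5-75, against 190 and 189 CPM in DMSO, and 62.7 and 69.1 CPM in Be(2)-C, against 99.0 and 97.4 CPM in DMSO. Transcript levels of the targets do not measure whether the enzymes were inhibited. The 13 neuroblastoma identity markers examined, MYCN among them, summed to 3269 to 4300 CPM in IMR5-75 and 9858 to 12072 CPM in Be(2)-C over all 16 libraries. These sums do not describe each marker. In IMR5-75 DMSO, MYCN had 23651 and 23778 counts, while DBH had 25 and 14, TH 16 and 0 and STMN2 0 and 0. Of these 13 in IMR5-75, 5 rose and 2 fell under DAC, against 19.9% and 13.8% of all genes, 3 rose under EPZ-6438, against 1.63%, and 5 rose and 3 fell under both drugs, against 25.7% and 20.4%. In Be(2)-C none was called under either drug alone by edgeR (5 with an unadjusted p below 0.05 under each), and 1 rose and 3 fell under both, against 13.2% and 10.4% of all genes. Because these are bulk samples, a change in every cell cannot be told apart from a change in the share of cells that transcribe a gene.

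The promoters of the members were read first, since ISGF3 binds its targets there. RefSeq (GRCh38.p14) gave a window of 250 bases before to 50 bases after the start for 36 of the 44. The search used the core of the response element, GAAA followed by any 2 bases and GAAA again, on either strand. This core was found in 24 of the 36 windows (66.7%), against 1255 of all 35114 windows of that length (3.57%). A motif of the kind that STAT dimers bind, TTCNNNGAA, which reads the same on both strands, was in 10 windows (27.8%), against 7.66% of all windows. The windows that hold the core include genes that rose, genes that fell and genes that were not called in these cells, and the 6 below were chosen to show all of these. Capitals mark the core or its reverse complement, and overlapping matches run together.
PARP14: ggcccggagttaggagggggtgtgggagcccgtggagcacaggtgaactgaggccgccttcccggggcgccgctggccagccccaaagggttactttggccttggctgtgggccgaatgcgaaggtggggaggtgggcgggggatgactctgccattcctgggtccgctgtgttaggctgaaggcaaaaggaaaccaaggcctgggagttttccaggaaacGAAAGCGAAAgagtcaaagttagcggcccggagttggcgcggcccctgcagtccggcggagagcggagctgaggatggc
HERC5: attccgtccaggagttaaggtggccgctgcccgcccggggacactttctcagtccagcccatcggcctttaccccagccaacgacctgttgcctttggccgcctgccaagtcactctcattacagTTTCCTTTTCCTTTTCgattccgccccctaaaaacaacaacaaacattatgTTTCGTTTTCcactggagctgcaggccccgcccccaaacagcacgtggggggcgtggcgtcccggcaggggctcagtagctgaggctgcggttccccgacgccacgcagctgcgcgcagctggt
ISG15: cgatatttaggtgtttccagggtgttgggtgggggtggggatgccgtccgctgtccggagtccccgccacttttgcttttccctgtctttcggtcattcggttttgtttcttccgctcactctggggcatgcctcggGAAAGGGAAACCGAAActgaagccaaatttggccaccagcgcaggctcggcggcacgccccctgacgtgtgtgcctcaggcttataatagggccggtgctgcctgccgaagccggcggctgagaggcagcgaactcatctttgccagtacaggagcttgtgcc
BST2: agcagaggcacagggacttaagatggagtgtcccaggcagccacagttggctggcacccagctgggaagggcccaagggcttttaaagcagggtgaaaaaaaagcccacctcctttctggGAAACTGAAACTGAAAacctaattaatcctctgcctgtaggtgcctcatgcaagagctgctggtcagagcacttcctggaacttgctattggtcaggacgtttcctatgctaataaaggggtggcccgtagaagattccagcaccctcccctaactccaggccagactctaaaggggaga
IFIT1: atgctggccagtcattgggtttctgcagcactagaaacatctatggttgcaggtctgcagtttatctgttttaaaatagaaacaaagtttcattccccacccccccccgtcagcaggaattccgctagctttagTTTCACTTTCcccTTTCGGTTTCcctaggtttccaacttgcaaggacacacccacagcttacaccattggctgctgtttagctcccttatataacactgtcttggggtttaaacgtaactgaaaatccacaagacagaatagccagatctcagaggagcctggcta
PLSCR1: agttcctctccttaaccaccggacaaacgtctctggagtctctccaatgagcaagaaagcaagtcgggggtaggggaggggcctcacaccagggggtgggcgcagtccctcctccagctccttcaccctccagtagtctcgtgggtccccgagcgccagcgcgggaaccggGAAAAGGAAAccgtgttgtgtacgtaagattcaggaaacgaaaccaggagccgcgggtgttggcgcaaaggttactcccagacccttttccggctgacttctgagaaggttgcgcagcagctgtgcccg
The PARP14 window is chr3:122680589-122680888 on the plus strand, with 1 match that begins 29 bases before the start. HERC5 lies at chr4:88456869-88457168 (plus), with matches 125, 119 and 74 bases before the start, and ISG15 at chr1:1013247-1013546 (plus), with matches 113 and 107 bases before it. BST2 lies at chr19:17405581-17405880 (minus), with overlapping matches 130 and 124 bases before the start. The IFIT1 window is chr10:89392373-89392672 (plus), with matches 116 and 103 bases before the start, and that of PLSCR1 is chr3:146544558-146544857 (minus), with 1 match 79 bases before it. PARP14, HERC5 and ISG15 rose under DAC in IMR5-75, BST2 rose in both lines under both drugs, IFIT1 was not called under any treatment, and PLSCR1 rose in Be(2)-C and fell in IMR5-75. Among members with a window, the core was in 14 of the 22 that rose under both drugs in IMR5-75 (63.6%) and in 5 of the 7 that were tested there and not called (71.4%). STAT2, IRF9, PARP9, UBE2L6, HERC6 and RSAD2 had no match in this window. A match describes these letters and not a bound site.

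In IMR5-75, most of the tested members were higher after DAC and after both drugs, and none was called after EPZ-6438 alone. DAC raised 20 of the 35 tested members (57.1%), against 19.9% of all genes tested, and lowered 2 (5.71%), against 13.8%. Both drugs together raised 23 (65.7%), against 25.7% of all genes, and lowered 3 (8.57%), against 20.4%. EPZ-6438 alone gave 0 calls by edgeR with TMM scaling and 1 by edgeR with DESeq2 size factors. DESeq2's own test gave 1 call, and edgeR with no filter on low counts gave 4. With TMM scaling, 1.98% of all genes were called in either direction and 1.63% were called higher. Of the members, 11 had an unadjusted p below 0.05. The median change of the 35 was 0.98 under DAC, 0.31 under EPZ-6438 and 1.43 under both drugs on the log2 scale, the last being 1.28 with genes at 0 in DMSO set to their lower bounds. The medians over all genes were 0.02, 0.01 and 0.03. A gene was tested where it reached about 10 counts in at least 2 libraries, so a gene with reads in the treated libraries alone could enter, and these counts describe the 35 and not all 44.

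Fewer members moved in Be(2)-C. DAC raised 3 of the 35 (8.57%), against 3.73% of all genes, EPZ-6438 raised 7 (20%), against 5.35%, and none fell under either drug. Without DMSO library 2 the DAC count was 1, and with any other library left out it was 2 or 3. The EPZ-6438 count was 3 without DMSO library 1, 4 without DMSO library 2 or EPZ-6438 library 2, and 5 without EPZ-6438 library 1. Calls that held under every alternative numbered 0 of the 3 under DAC and 2 of the 7 under EPZ-6438 (PARP14 and SAMD9). Both drugs raised 12 (34.3%), against 13.2% of all genes, and lowered 2 (5.71%), against 10.4%. The medians of the 35 were 0.30, 0.45 and 0.77 under DAC, EPZ-6438 and both drugs, against 0.02, 0.02 and 0.05 over all genes. The treatments of a line share their DMSO libraries, so their counts are not independent of each other.

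**Figure D1:**
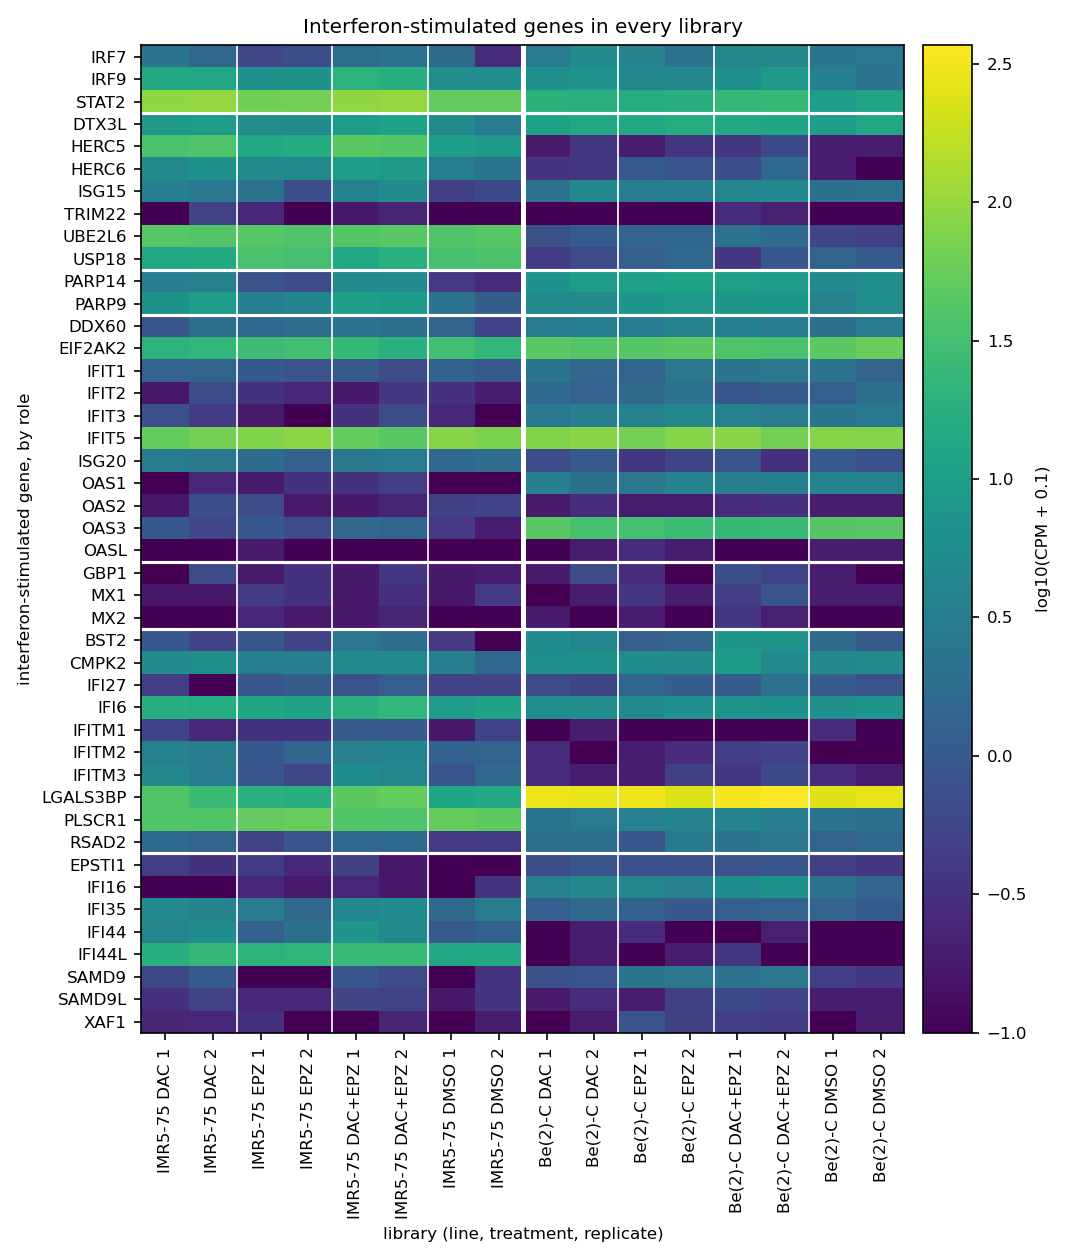
Level of each of the 44 members (rows, ordered by role) in each of the 16 libraries (columns, grouped by line and treatment), as log10 of CPM plus 0.1. HERC5, UBE2L6 and IFI44L are bright in every IMR5-75 library and dark in Be(2)-C, OAS3 and PARP14 show the reverse in the DMSO libraries, and the dynamin-like members are dark throughout.

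**Figure D2:**
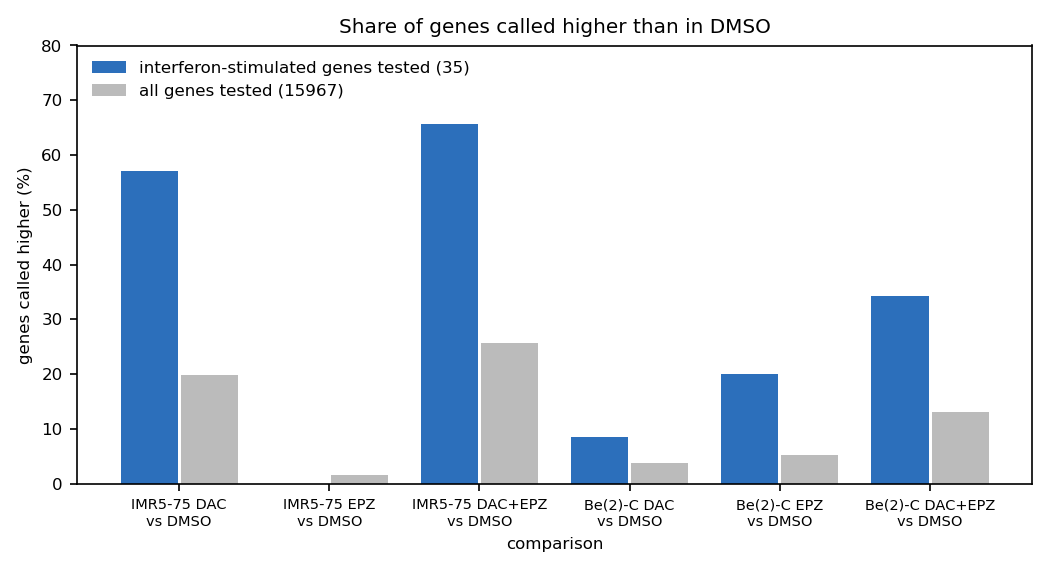
Percentage of the 35 tested members (blue) and of all 15967 tested genes (grey) called higher than DMSO, by line and treatment. Under both drugs the members reach 65.7% in IMR5-75 and 34.3% in Be(2)-C, against 25.7% and 13.2% of all genes.

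Of the transcription factors of the pathway, STAT2 and IRF9 rose in IMR5-75 under DAC and under both drugs, and IRF7 was not called. STAT2, a subunit of ISGF3, had 92.2 and 96.6 CPM under DAC, 63.4 and 65.1 CPM under EPZ-6438 and 94.3 and 99.5 CPM under both drugs, against 50.3 and 51.3 CPM in DMSO. All treated libraries lay above both DMSO libraries. STAT2 rose by 0.89 ± 0.12 under DAC (adjusted p = 4.05e-06) and 0.93 ± 0.12 under both drugs (adjusted p = 1.24e-06), while its change of 0.34 ± 0.12 under EPZ-6438 missed the threshold (adjusted p = 0.144). IRF9, the DNA-binding subunit of ISGF3, had 14.2 and 13.8 CPM under DAC, 6.31 and 6.61 CPM under EPZ-6438 and 20.0 and 17.6 CPM under both drugs, against 5.46 and 5.55 CPM in DMSO. It rose by 1.35 ± 0.19 under DAC (adjusted p = 1.56e-05) and 1.77 ± 0.19 under both drugs (adjusted p = 1.85e-07). IRF7, the factor that amplifies interferon production, had 2.27 and 1.40 CPM under DAC, 0.473 and 0.629 CPM under EPZ-6438 and 1.83 and 2.06 CPM under both drugs, against 1.62 and 0.168 CPM in DMSO. The 2 DMSO libraries lay far apart for this gene and it was not called, but without DMSO library 1 its change was 3.40 under DAC (adjusted p = 0.00447) and 3.51 under both drugs (adjusted p = 0.00185). Without DMSO library 2 the change of IRF7 was 0.18 under DAC (adjusted p = 0.824) and 0.25 under both drugs (adjusted p = 0.713).

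Among the genes of the ISG15 system in IMR5-75, HERC5 and ISG15 rose under DAC and under both drugs, USP18 fell under both regimens, and UBE2L6 was not called. HERC5, the ligase that attaches ISG15, had 34.9 and 38.7 CPM under DAC, 14.0 and 15.3 CPM under EPZ-6438 and 45.7 and 42.5 CPM under both drugs, against 10.0 and 8.50 CPM in DMSO. It rose by 1.99 ± 0.17 under DAC (adjusted p = 9.33e-09) and 2.25 ± 0.16 under both drugs (adjusted p = 8.31e-10), and under EPZ-6438 its change of 0.66 ± 0.17 had an adjusted p of 0.0511. ISG15 itself had 3.33 and 2.42 CPM under DAC, 2.21 and 0.629 CPM under EPZ-6438 and 3.60 and 5.09 CPM under both drugs, against 0.369 and 0.505 CPM in DMSO. It rose by 2.71 ± 0.53 under DAC (adjusted p = 0.000498) and 3.30 ± 0.50 under both drugs (adjusted p = 1.58e-05). Its change under EPZ-6438 was 1.69 ± 0.61 (adjusted p = 0.164). It was 0.54 without EPZ-6438 library 1 and 2.32 without EPZ-6438 library 2 (adjusted p = 0.0619).

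USP18, which removes ISG15 from its targets and dampens interferon receptor signalling, had 13.2 and 14.6 CPM under DAC, 34.4 and 32.5 CPM under EPZ-6438 and 13.5 and 18.2 CPM under both drugs, against 33.5 and 37.3 CPM in DMSO. It fell by 1.35 ± 0.18 on the log2 scale under DAC (adjusted p = 4.56e-06) and by 1.16 ± 0.17 under both drugs (adjusted p = 1.42e-05), with the EPZ-6438 libraries level with DMSO. USP18 has near-identical copies in the genome, so reads may be shared with them. UBE2L6, the enzyme that carries ISG15 to HERC5, had 38.5 to 44.8 CPM in the 6 treated libraries and 38.8 and 43.1 CPM in DMSO, and was not called (0.09 ± 0.13 under both drugs, adjusted p = 0.607).

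HERC6, a relative of HERC5, had 4.82 and 6.39 CPM under DAC, 4.65 and 4.96 CPM under EPZ-6438 and 9.91 and 8.45 CPM under both drugs, against 3.24 and 2.36 CPM in DMSO. Its rise was 0.98 ± 0.28 under DAC (adjusted p = 0.00924) and 1.70 ± 0.26 under both drugs (adjusted p = 2.18e-05); the DAC call was lost without DMSO library 2 (adjusted p = 0.0995) or DAC library 2 (0.0907). DTX3L, a ubiquitin ligase that works with PARP9, had 8.21 and 9.36 CPM under DAC, 5.52 and 5.11 CPM under EPZ-6438 and 9.39 and 11.6 CPM under both drugs, against 4.87 and 2.86 CPM in DMSO. It rose by 1.17 ± 0.24 under DAC (adjusted p = 0.000713) and 1.43 ± 0.23 under both drugs (adjusted p = 4.04e-05).

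Both ADP-ribosylation members rose, and PARP14 had the largest fitted change among members with over 3 counts in DMSO. PARP14, an ADP-ribosyltransferase, had 3.26 and 3.43 CPM under DAC, 0.709 and 0.551 CPM under EPZ-6438 and 4.77 and 5.09 CPM under both drugs, against 0.295 and 0.168 CPM in DMSO, where the level rests on 6 counts. It rose by 3.77 ± 0.41 under DAC (adjusted p = 4.03e-07) and 4.33 ± 0.38 under both drugs (adjusted p = 1.20e-08). PARP9, the partner of DTX3L, had 6.66 and 9.51 CPM under DAC, 3.31 and 3.93 CPM under EPZ-6438 and 9.91 and 8.59 CPM under both drugs, against 2.06 and 1.01 CPM in DMSO. It rose by 2.36 ± 0.30 under DAC (adjusted p = 2.95e-06) and 2.56 ± 0.29 under both drugs (adjusted p = 4.33e-07). Without DMSO library 1 these changes of PARP9 became 3.0 and 3.23. PARP9 and DTX3L overlap on opposite strands and no source used here gives the strand setting of the counting. Reads of one may therefore be counted with the other.

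**Figure D3:**
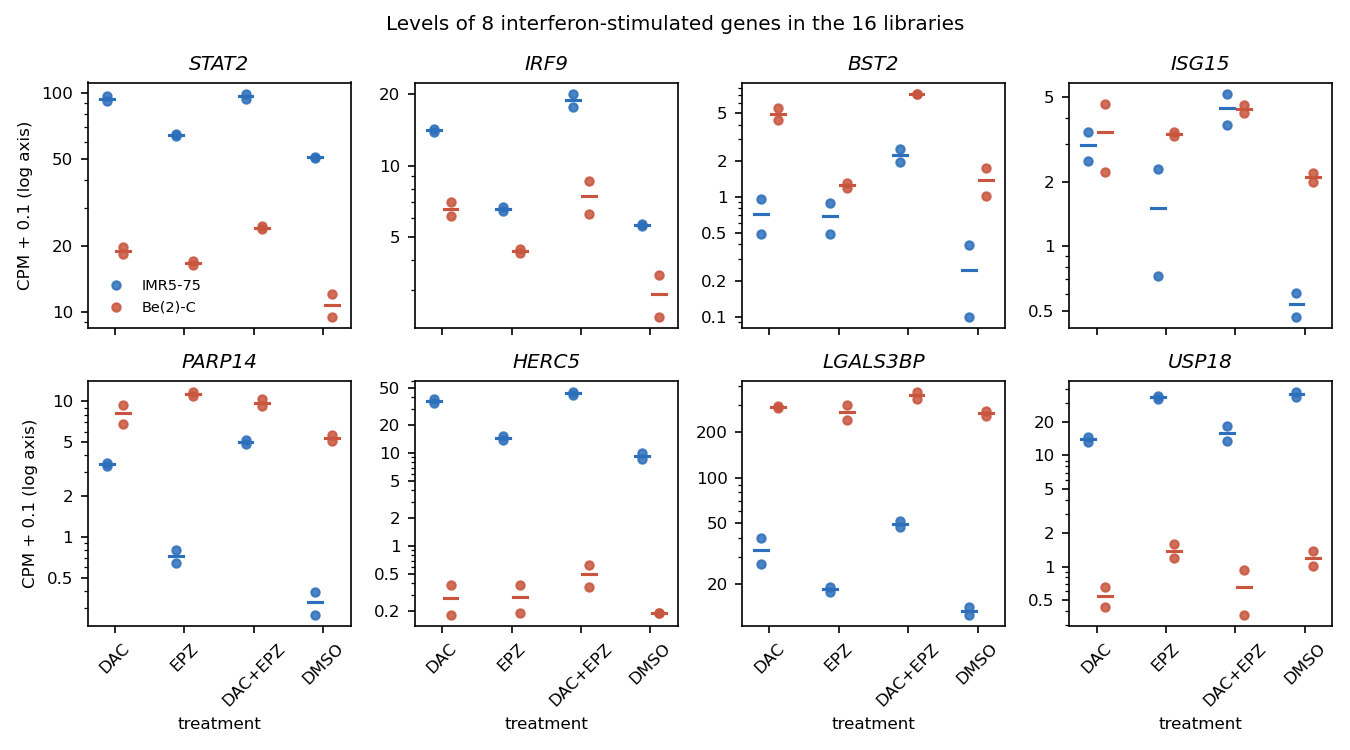
Level of 8 members in every library (points), as CPM plus 0.1 on a log axis, with the mean of each group as a dash, for IMR5-75 (left) and Be(2)-C (right). HERC5, IRF9 and PARP14 in IMR5-75 are higher in the DAC and the combined libraries than in DMSO, and USP18 in IMR5-75 is lower there.

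Of the RNA-binding members, 3 of the 9 tested (OAS1, OAS3 and DDX60) rose under both drugs in IMR5-75 and 1 (IFIT5) fell, against 25.7% and 20.4% of all genes. OAS3, an oligoadenylate synthetase, had 0.850 and 0.468 CPM under DAC, 0.867 and 0.551 CPM under EPZ-6438 and 1.39 and 1.31 CPM under both drugs, against 0.295 and 0.0841 CPM in DMSO. Its change under both drugs was 2.72 ± 0.55 (adjusted p = 0.000404), and 3.89 without DMSO library 1. Under DAC it was 1.71 ± 0.65 (adjusted p = 0.0469), a call lost without DMSO library 2 (1.14, adjusted p = 0.272) or DAC library 1 (1.21, adjusted p = 0.320), while without DMSO library 1 the change was 2.86. OAS1, of the same family, had 8 counts over the libraries with both drugs and 0 in DMSO, which makes it at least 2.41-fold higher against a floor of 3 counts over the group (adjusted p = 0.0202). That call was lost without either DMSO library (adjusted p = 0.0901 and 0.0753) or without DAC+EPZ library 2 (0.0787).

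DDX60, a helicase-like cofactor of RNA sensing, had 2.27 and 1.92 CPM under both drugs, against 1.25 and 0.421 CPM in DMSO. It rose by 1.28 ± 0.44 (adjusted p = 0.0217), with 2.34 without DMSO library 1, and the call was lost without DMSO library 2 (0.72, adjusted p = 0.239) or DAC+EPZ library 1 (adjusted p = 0.0847). IFIT5, a relative of IFIT1 that also binds RNA ends, had 53.1 and 44.1 CPM under both drugs, against 82.6 and 72.3 CPM in DMSO, and fell by 0.67 ± 0.15 on the log2 scale (adjusted p = 0.000982). IFIT3, a partner of IFIT1, had 13 counts under DAC and 2 in DMSO, a ratio of 6.14 (95% counting interval 1.39 to 56.0, adjusted p = 0.0420). The IFIT3 call was lost without DMSO library 2 (adjusted p = 0.238) or DAC library 1 (0.270). IFIT1, which binds RNA lacking the host's cap methylation, had 0.881 and 0.550 CPM under both drugs, against 1.18 and 0.925 CPM in DMSO, a change of -0.57 ± 0.48 (adjusted p = 0.354). EIF2AK2, the kinase PKR, had 24.3 and 18.4 CPM under both drugs, against 30.9 and 23.1 CPM in DMSO, and was not called (-0.34 ± 0.16, adjusted p = 0.0888). ISG20, an exonuclease, and IFIT2 were not called either.

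A further group was formed of membrane and entry effectors. It is mixed, since it also takes in the secreted LGALS3BP and the nucleotide enzymes RSAD2 and CMPK2. Of its members, 8 of the 10 tested rose under both drugs in IMR5-75 and 1 fell, against 25.7% and 20.4% of all genes. LGALS3BP, RSAD2 and CMPK2 are among the 8. The roles were formed with earlier results of these data known, so this share is a description only. LGALS3BP, a secreted galectin-binding glycoprotein, had 39.8 and 26.8 CPM under DAC, 19.0 and 17.5 CPM under EPZ-6438 and 47.0 and 52.1 CPM under both drugs, against 12.4 and 14.0 CPM in DMSO. It rose by 1.34 ± 0.17 under DAC (adjusted p = 2.66e-06) and 1.91 ± 0.17 under both drugs (adjusted p = 9.39e-09). BST2 (tetherin), which holds budding virions at the cell surface, had 0.850 and 0.390 CPM under DAC, 0.788 and 0.393 CPM under EPZ-6438 and 2.42 and 1.86 CPM under both drugs, against 0.295 and 0 CPM in DMSO. The combined libraries lay above all others of the line, with a change of 3.68 ± 0.62 (adjusted p = 5.21e-05) that was 7.71 without DMSO library 1, where the remaining DMSO library has no count, and 2.80 without DMSO library 2. Under DAC alone BST2 was not called (1.94 ± 0.79, adjusted p = 0.0643). That comparison was called without DMSO library 1 (adjusted p = 0.0172) or without DAC library 2, and was 1.06 without DMSO library 2 (adjusted p = 0.355) and 1.26 without DAC library 1 (adjusted p = 0.404).

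The IFITM proteins block fusion of virus and cell membranes. IFITM3 had 4.25 and 2.73 CPM under DAC, 0.788 and 0.472 CPM under EPZ-6438 and 5.28 and 4.26 CPM under both drugs, against 0.737 and 1.43 CPM in DMSO, and rose by 1.71 ± 0.38 (adjusted p = 0.00159) under DAC and 2.15 ± 0.37 (adjusted p = 6.44e-05) under both drugs. IFITM2 had 3.54 and 3.12 CPM under DAC, 0.867 and 1.34 CPM under EPZ-6438 and 3.52 and 3.92 CPM under both drugs, against 1.18 and 1.26 CPM in DMSO, and rose by 1.44 ± 0.34 (adjusted p = 0.00290) and 1.60 ± 0.34 (adjusted p = 0.000620). For both genes the DAC and the combined libraries lay above the DMSO libraries and the EPZ-6438 libraries overlapped them. IFITM1 had 0.425 and 0.156 CPM under DAC, 0.236 and 0.236 CPM under EPZ-6438 and 0.954 and 0.962 CPM under both drugs, against 0.0737 and 0.421 CPM in DMSO, and rose by 1.97 ± 0.71 under both drugs (adjusted p = 0.0301). The IFITM1 call was lost without DMSO library 1 (1.22, adjusted p = 0.258) or either combined library (adjusted p = 0.0818 and 0.0922), and without DMSO library 2 the change was 3.51. The 3 IFITM genes are near-identical in sequence and IFITM1 overlaps IFITM2, so reads may be split between them.

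IFI6, a mitochondrial and endoplasmic reticulum protein, had 17.2 and 15.9 CPM under DAC, 12.6 and 11.2 CPM under EPZ-6438 and 18.5 and 22.5 CPM under both drugs, against 9.36 and 11.1 CPM in DMSO. It rose by 0.70 ± 0.17 under DAC (adjusted p = 0.00367, and 0.0508 without DMSO library 1) and 1.01 ± 0.17 under both drugs (adjusted p = 5.79e-05). RSAD2 (viperin), which makes a chain-terminating nucleotide, had 1.56 and 1.25 CPM under DAC, 0.394 and 0.708 CPM under EPZ-6438 and 1.39 and 1.58 CPM under both drugs, against 0.295 and 0.336 CPM in DMSO. It rose by 2.13 ± 0.57 under DAC (adjusted p = 0.00693, and 0.0534 without DMSO library 1) and 2.21 ± 0.57 under both drugs (adjusted p = 0.00300). CMPK2, the mitochondrial nucleotide kinase that lies beside RSAD2, had 5.17 and 5.61 CPM under DAC and 5.06 and 5.02 CPM under both drugs, against 3.24 and 1.43 CPM in DMSO. CMPK2 was called under DAC (1.18 ± 0.31, adjusted p = 0.00562) and under both drugs (1.08 ± 0.31, adjusted p = 0.00690). Without DMSO library 2 it had 0.72 (adjusted p = 0.110) and 0.62 (adjusted p = 0.139), and without DMSO library 1 it had 1.92 and 1.86. RSAD2 and CMPK2 overlap on opposite strands, with the same limit as PARP9 and DTX3L.

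PLSCR1, a phospholipid scramblase with antiviral activity, had 39.7 and 39.3 CPM under DAC, 51.6 and 53.7 CPM under EPZ-6438 and 39.0 and 38.8 CPM under both drugs, against 52.6 and 48.2 CPM in DMSO. It fell by 0.35 ± 0.13 on the log2 scale under DAC (adjusted p = 0.0341) and by 0.37 ± 0.13 under both drugs (adjusted p = 0.0181). The DAC call was lost without any one of the 4 libraries (adjusted p up to 0.229), and the combined call without DMSO library 1 (0.213) or either combined library (0.116 and 0.118). IFI27, a mitochondrial membrane protein, was not called in either line.

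The remaining members include nuclear and cytosolic proteins of mixed function, and 4 of the 5 tested rose under DAC and under both drugs in IMR5-75, against 19.9% and 25.7% of all genes. IFI44, a cytosolic protein with antiviral activity, had 4.11 and 5.30 CPM under DAC, 1.18 and 1.97 CPM under EPZ-6438 and 7.12 and 4.88 CPM under both drugs, against 0.885 and 1.18 CPM in DMSO. It rose by 2.19 ± 0.39 under DAC (adjusted p = 0.000203) and 2.54 ± 0.38 under both drugs (adjusted p = 1.57e-05). IFI44L, its paralogue, had 17.1 and 23.4 CPM under DAC, 20.0 and 21.7 CPM under EPZ-6438 and 26.0 and 25.1 CPM under both drugs, against 13.9 and 13.9 CPM in DMSO. All treated libraries lay above DMSO, and IFI44L rose by 0.54 ± 0.20 under DAC (adjusted p = 0.0365) and 0.88 ± 0.19 under both drugs (adjusted p = 0.000873). The DAC call of IFI44L was lost without DMSO library 1 (adjusted p = 0.114), DMSO library 2 (0.123) or DAC library 2 (0.323).

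IFI35, which forms a complex with NMI, had 5.03 and 3.82 CPM under DAC and 4.33 and 5.36 CPM under both drugs, against 1.62 and 3.20 CPM in DMSO. It rose by 0.90 ± 0.33 (adjusted p = 0.0378) and 1.03 ± 0.32 (adjusted p = 0.0123), and without DMSO library 1 neither comparison was called (0.49, adjusted p = 0.360, and 0.65, adjusted p = 0.171). The DAC call was lost also without DAC library 1 (adjusted p = 0.223) and the combined call without DAC+EPZ library 2 (0.0827). SAMD9, an antiviral restriction factor, had 19 counts under DAC, 0 under EPZ-6438 and 19 under both drugs, against 3 in DMSO. The ratios were 5.98 (1.76 to 31.6, adjusted p = 0.0201) under DAC and 5.72 (1.68 to 30.2, adjusted p = 0.0172) under both drugs. The SAMD9 calls were lost without DMSO library 1 (adjusted p = 0.201 and 0.180), DAC library 2 (0.150) or DAC+EPZ library 1 (0.0903), and without DMSO library 2 the other DMSO library has no SAMD9 count. IFI16, a DNA sensor, had 0 counts under DAC and 3 in each other group of IMR5-75, and no fold is given.

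In Be(2)-C the transcription factors STAT2 and IRF9 again rose, and HERC5, the ISG15 ligase, was near the detection floor. STAT2 had 19.7 and 18.3 CPM under DAC, 16.3 and 16.9 CPM under EPZ-6438 and 24.0 and 24.5 CPM under both drugs, against 9.43 and 11.9 CPM in DMSO. All treated libraries lay above both DMSO libraries. STAT2 rose by 0.83 ± 0.14 (adjusted p = 0.000888), 0.64 ± 0.14 (adjusted p = 0.00626) and 1.18 ± 0.14 (adjusted p = 2.68e-06) under the 3 treatments in that order. Without DMSO library 1 the change of STAT2 was 0.66 under DAC (adjusted p = 0.0576) and 0.46 under EPZ-6438 (adjusted p = 0.180). IRF9 had 6.01 and 6.95 CPM under DAC, 4.18 and 4.35 CPM under EPZ-6438 and 6.14 and 8.49 CPM under both drugs, against 3.35 and 2.20 CPM in DMSO. It rose by 1.21 ± 0.24 under DAC (adjusted p = 0.00353, and 0.0925 without DMSO library 2) and 1.38 ± 0.24 under both drugs (adjusted p = 0.000233). IRF7 had 2.88 and 5.09 CPM under DAC, 3.72 and 2.04 CPM under EPZ-6438 and 4.18 and 4.09 CPM under both drugs, against 2.36 and 2.39 CPM in DMSO. It was not called in Be(2)-C (0.80 ± 0.43 under both drugs, adjusted p = 0.189).

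UBE2L6 had 0.658 and 0.926 CPM under DAC, 1.27 and 1.30 CPM under EPZ-6438 and 2.14 and 1.68 CPM under both drugs, against 0.453 and 0.367 CPM in DMSO. The gene rose in Be(2)-C by 1.62 ± 0.42 under EPZ-6438 (adjusted p = 0.0203) and 2.20 ± 0.39 under both drugs (adjusted p = 0.000294), and the EPZ-6438 call was lost without any one of the 4 libraries (adjusted p up to 0.162). HERC6 had 18 counts under EPZ-6438 and 22 under both drugs, against 1 in DMSO. The ratios were 18.1 (2.86 to 754, adjusted p = 0.0108) and 23.2 (3.75 to 959, adjusted p = 0.00151), and the EPZ-6438 call was lost without DMSO library 2 (adjusted p = 0.118). The fitted log2 change of HERC6 under both drugs was 3.41 without DMSO library 2 and 3.50 without DAC+EPZ library 2, against 4.27 with all, and without DMSO library 1 the remaining DMSO library has no count. ISG15 had 2.14 and 4.54 CPM under DAC, 3.18 and 3.33 CPM under EPZ-6438 and 4.10 and 4.51 CPM under both drugs, against 1.90 and 2.11 CPM in DMSO, with all treated libraries above both DMSO libraries, and its change under both drugs missed the threshold (1.09 ± 0.40, adjusted p = 0.0510). HERC5 had 8 counts under both drugs and 2 in DMSO, and was not called. USP18 had 0.267 and 0.839 CPM under both drugs, against 1.27 and 0.918 CPM in DMSO (-1.03 ± 0.51, adjusted p = 0.159).

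PARP14 had 6.75 and 9.36 CPM under DAC, 10.8 and 11.7 CPM under EPZ-6438 and 10.2 and 9.12 CPM under both drugs, against 4.98 and 5.60 CPM in DMSO. PARP14 rose in Be(2)-C by 1.08 ± 0.21 under EPZ-6438 (adjusted p = 0.00158) and 0.87 ± 0.21 under both drugs (adjusted p = 0.00440), and the combined call was lost without DMSO library 1 (adjusted p = 0.0649). PARP9 had 7.44 and 8.51 CPM under EPZ-6438 and 7.57 and 7.66 CPM under both drugs, against 3.44 and 5.51 CPM in DMSO, and rose by 0.83 ± 0.26 (adjusted p = 0.0458) and 0.77 ± 0.26 (adjusted p = 0.0396). The PARP9 calls were lost without DMSO library 1 (adjusted p = 0.428 under EPZ-6438 and 0.382 under both drugs) and without any one of the treated libraries (0.0704 to 0.188).

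BST2 had 5.35 and 4.26 CPM under DAC, 1.09 and 1.20 CPM under EPZ-6438 and 7.03 and 7.13 CPM under both drugs, against 1.63 and 0.918 CPM in DMSO. The DAC and the combined libraries of Be(2)-C lay above the DMSO libraries and the EPZ-6438 libraries lay among them. BST2 rose by 1.91 ± 0.38 under DAC (adjusted p = 0.00347) and 2.46 ± 0.37 under both drugs (adjusted p = 4.06e-05). The DAC call was lost without DMSO library 2 (1.55, adjusted p = 0.0797) or DAC library 1 (1.71, adjusted p = 0.0537). LGALS3BP had 329 and 368 CPM under both drugs, against 256 and 276 CPM in DMSO, and rose by 0.39 ± 0.14 (adjusted p = 0.0490), a call lost without any one of the 4 libraries (adjusted p 0.0717 to 0.282). PLSCR1 had 3.45 and 3.98 CPM under EPZ-6438 and 3.92 and 3.04 CPM under both drugs, against 2.18 and 1.93 CPM in DMSO, and rose by 0.85 ± 0.24 (adjusted p = 0.0248) and 0.77 ± 0.24 (adjusted p = 0.0248). Those calls were lost without DMSO library 1 (0.118 and 0.0877), DMSO library 2 (0.174 and 0.152), EPZ-6438 library 2 (0.151) or DAC+EPZ library 1 (0.281). IFITM2 had 8 counts under both drugs and 0 in DMSO, at least 2.82-fold higher (adjusted p = 0.0158), and lost its call without either DMSO library (0.0920 and 0.0868) or DAC+EPZ library 2 (0.0591). IFITM3 had 3, 5 and 8 counts under DAC, EPZ-6438 and both drugs, against 3 in DMSO, and IFITM1 had 1, 0 and 0, against 2, and neither was called.

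SAMD9 had 0.658 and 0.741 CPM under DAC, 2.36 and 2.50 CPM under EPZ-6438 and 2.14 and 2.52 CPM under both drugs, against 0.363 and 0.275 CPM in DMSO. Its rise in Be(2)-C was 2.89 ± 0.55 under EPZ-6438 (adjusted p = 0.00174) and 2.82 ± 0.56 under both drugs (adjusted p = 0.000904). IFI16 had 3.54 and 4.35 CPM under DAC, 4.09 and 3.42 CPM under EPZ-6438 and 5.34 and 6.40 CPM under both drugs, against 2.18 and 1.38 CPM in DMSO, and rose by 1.71 ± 0.34 under both drugs (adjusted p = 0.000908). OAS3 had 45.3 and 33.5 CPM under DAC, 32.8 and 27.3 CPM under EPZ-6438 and 24.7 and 26.3 CPM under both drugs, against 40.8 and 44.0 CPM in DMSO. The combined libraries were the lowest of the line, and OAS3 fell by 0.73 ± 0.17 on the log2 scale (adjusted p = 0.00287). EIF2AK2 had 38.6 and 35.1 CPM under both drugs, against 47.1 and 55.5 CPM in DMSO. It fell by 0.47 ± 0.16 (adjusted p = 0.0312), a call lost without DMSO library 2 (0.251) or either combined library (0.0667 and 0.178). The other 21 tested members were not called under any treatment of Be(2)-C. Of these, IFIT5 had 65.0 to 84.6 CPM over the 8 libraries of the line, DTX3L 9.52 to 15.8 CPM, IFI6 4.81 to 7.35 CPM and CMPK2 4.35 to 8.55 CPM, while IFI44 and IFI44L had at most 3 counts in any group.

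Adding EPZ-6438 to DAC changed few members. In IMR5-75, both drugs against DAC alone gave 0 calls among the 35 members by edgeR with TMM scaling. DESeq2's own test gave 1 call, and edgeR gave 2 with DESeq2 size factors and 2 with no filter on low counts. With TMM scaling, 1.94% of all genes were called in either direction. Of the members, 8 had an unadjusted p below 0.05. BST2 came closest, with 2.42 and 1.86 CPM under both drugs, against 0.850 and 0.390 CPM under DAC (1.74 ± 0.46, adjusted p = 0.0507), and LGALS3BP had 0.57 ± 0.15 (adjusted p = 0.0548). In Be(2)-C, UBE2L6 (1.28 ± 0.34, adjusted p = 0.0266) and SAMD9 (1.72 ± 0.47, adjusted p = 0.0371) were higher under both drugs than under DAC, 2 of 35 members against 3.42% of all genes, and OAS3 was lower (-0.63 ± 0.17, adjusted p = 0.0286), against 2.02% of all genes lower. The calls of UBE2L6 and SAMD9 were lost without any one of the 4 libraries (adjusted p up to 0.267 and 0.223), and that of OAS3 without DAC library 1 or either combined library (up to 0.342).

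Adding DAC to EPZ-6438 changed more of them in IMR5-75. Both drugs against EPZ-6438 alone gave 20 members higher and 4 lower of 35 in IMR5-75, against 20.7% and 16.9% of all genes, with HERC5 at 1.59 ± 0.16 (adjusted p = 1.07e-07), PARP14 at 2.95 ± 0.31 (adjusted p = 2.85e-07) and LGALS3BP at 1.44 ± 0.16 (adjusted p = 5.19e-07). BST2 (2.62 ± 0.37, adjusted p = 0.000146) and STAT2 (0.55 ± 0.13, adjusted p = 0.0182) were higher than under EPZ-6438 in Be(2)-C, 2 of 35 against 2.84% of all genes. The STAT2 call was lost without any one of the 4 libraries (adjusted p up to 0.137). The interaction term, which asks whether the combined change differs from the sum of the single changes on the log2 scale, gave 0 calls among the members in either line by edgeR and by DESeq2, against 0.0251% of all genes in IMR5-75 and 0.257% in Be(2)-C. The smallest p values were those of PARP9 in IMR5-75 (-1.01 ± 0.40, adjusted p = 0.657) and PARP14 in Be(2)-C (-0.81 ± 0.29, adjusted p = 0.490), each the single member with an unadjusted p below 0.05.

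Some of the calls under both drugs were shared between the lines. STAT2, IRF9, PARP9, PARP14, HERC6, IFITM2, BST2, LGALS3BP and SAMD9 rose in both, 9 genes that make up 39.1% of the 23 in IMR5-75 and 75% of the 12 in Be(2)-C. Of all 35 tested members, 65.7% rose in IMR5-75, which is the share to set beside the 75%. PLSCR1 and OAS3 were called in opposite directions. OAS3 rose in IMR5-75 and fell in Be(2)-C, and PLSCR1 fell in IMR5-75 and rose in Be(2)-C. Under DAC alone STAT2 and IRF9 rose in both lines, 10% of the 20 in IMR5-75 and 66.7% of the 3 in Be(2)-C. Of all 35 tested, 57.1% rose under DAC in IMR5-75. The shared calls lie near these shares and are not read as a result about the members. Overlap over all genes was not counted.

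The difference in response between the lines was tested itself, as the change in IMR5-75 minus the change in Be(2)-C. Under both drugs, 7 of 35 members had a larger change in IMR5-75 and 2 a smaller one, against 6.71% and 4.35% of all genes. PARP14 changed by 4.33 ± 0.38 in IMR5-75 and 0.87 ± 0.21 in Be(2)-C, a difference of 3.46 ± 0.47 (adjusted p = 2.91e-05). LGALS3BP changed by 1.91 ± 0.17 in IMR5-75 and 0.39 ± 0.14 in Be(2)-C, a difference of 1.52 ± 0.22 (adjusted p = 4.39e-05). OAS3 differed by 3.45 ± 0.57 (adjusted p = 0.000266, and 4.65 without IMR5-75 DMSO library 1) and UBE2L6 by -2.11 ± 0.42 (adjusted p = 0.00151). These 4 differences kept their calls when any one library was left out. PARP9 (1.79 ± 0.40), PLSCR1 (-1.14 ± 0.27), DTX3L (1.27 ± 0.32), IFI6 (1.00 ± 0.27) and ISG15 (2.21 ± 0.68) were called too, and each lost its call without at least 1 library. The highest adjusted p so obtained was 0.0655 for PARP9, whose difference was 2.49 without IMR5-75 DMSO library 1, 0.0990 for PLSCR1, 0.0920 for DTX3L, 0.128 for IFI6 and 0.151 for ISG15.

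Under DAC, PARP14 (3.17 ± 0.49, adjusted p = 0.000154), LGALS3BP (1.21 ± 0.22, adjusted p = 0.000882), PARP9 (2.18 ± 0.41, adjusted p = 0.00144) and DTX3L (1.08 ± 0.32, adjusted p = 0.0448) changed more in IMR5-75, 4 of 35 members against 5.13% of all genes. The DTX3L call was lost without any one of 6 libraries (adjusted p up to 0.252), and PARP9 differed by 2.84 without IMR5-75 DMSO library 1. Under EPZ-6438 no member's change was called different between the lines by edgeR or DESeq2 (1 by edgeR with no filter on low counts), against 1.19% of all genes, and 8 had an unadjusted p below 0.05. UBE2L6 came closest there (-1.61, adjusted p = 0.0832). The members called in one line and not in the other beyond these were not shown to differ.

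**Figure D4:**
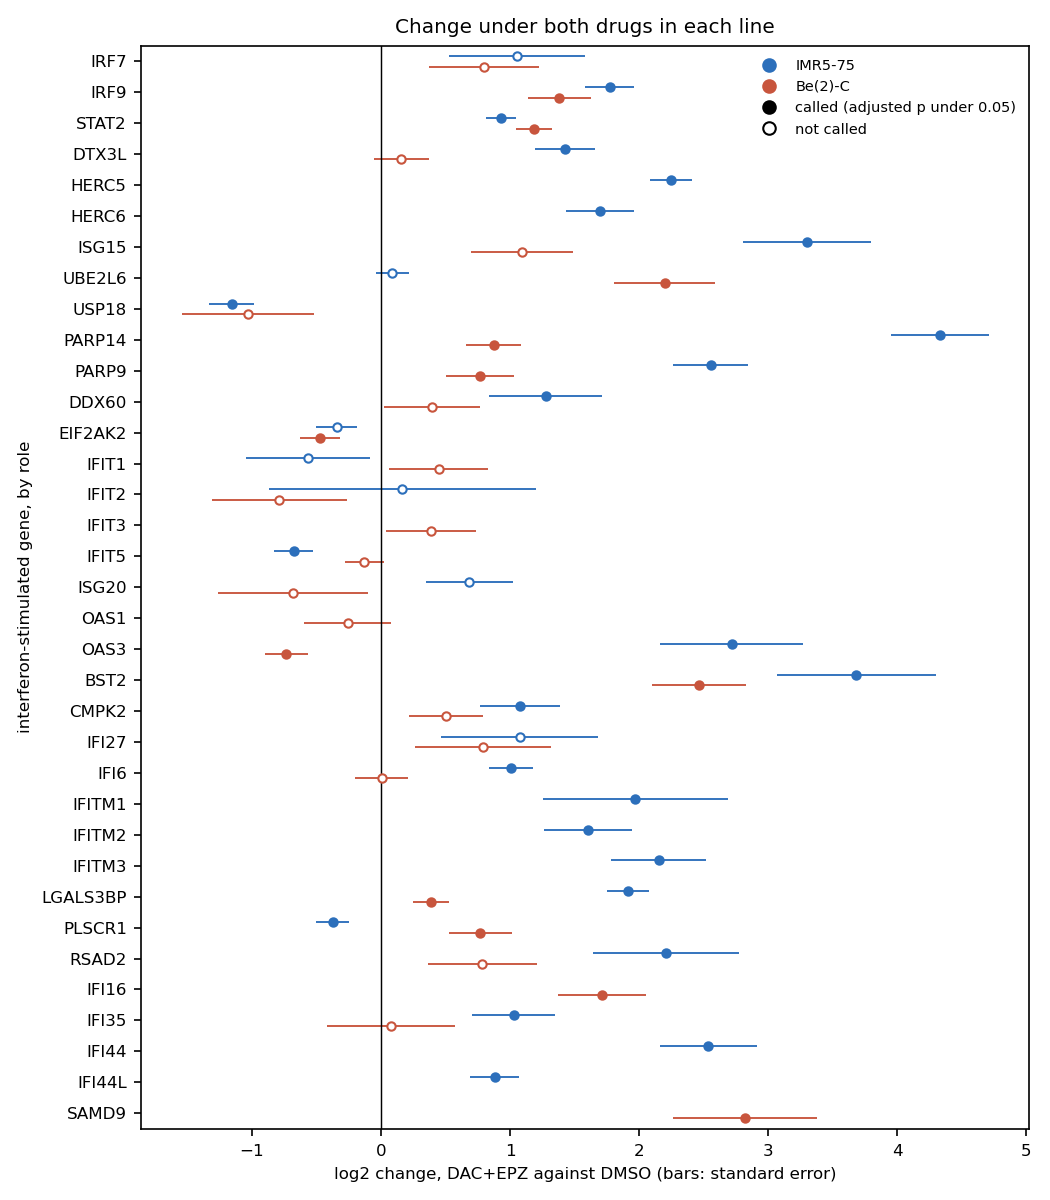
Log2 change of members under both drugs relative to DMSO, with its standard error, in IMR5-75 and Be(2)-C. Filled points are called at adjusted p below 0.05 and open points are not, members with 3 counts or fewer in a group are left out, and PARP14 stands at 4.33 in IMR5-75 and 0.87 in Be(2)-C.

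Without any drug the lines already differed in most members. Of the 35, 14 were higher in IMR5-75 DMSO than in Be(2)-C DMSO and 16 lower, against 32.0% and 31.2% of all genes. The members higher in IMR5-75 include UBE2L6, with 38.8 and 43.1 CPM in IMR5-75 and 0.453 and 0.367 CPM in Be(2)-C (6.60 ± 0.24, adjusted p = 8.80e-16), and PLSCR1, with 52.6 and 48.2 CPM in IMR5-75 and 2.18 and 1.93 CPM in Be(2)-C (4.61 ± 0.18, adjusted p = 2.39e-15). HERC5 was 102-fold higher in IMR5-75 (counting interval 27.9 to 848), with 2 counts in Be(2)-C, HERC6 was 62.0-fold higher (10.8 to 2483), with 1 count there, and IFI44L was at least 101-fold higher, with 0 counts there. The fitted difference of HERC6, 5.66, was 4.81 without Be(2)-C DMSO library 2, and without library 1 that group has no count. STAT2 was higher by 2.25 ± 0.13 and USP18 by 5.0 ± 0.26.

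The members lower in IMR5-75 include OAS3, with 0.295 and 0.0841 CPM in IMR5-75 and 40.8 and 44.0 CPM in Be(2)-C (-7.68 ± 0.32, adjusted p = 9.09e-15, and -8.84 without IMR5-75 DMSO library 1), and LGALS3BP, with 12.4 and 14.0 CPM in IMR5-75 and 256 and 276 CPM in Be(2)-C (-4.34 ± 0.17, adjusted p = 2.86e-15). PARP14 differed by -4.43 ± 0.38, and OAS1 was at least 33.3-fold lower, with 0 counts in IMR5-75. BST2 had 0.295 and 0 CPM in IMR5-75 and 1.63 and 0.918 CPM in Be(2)-C. PARP14, OAS3, LGALS3BP, PARP9, DTX3L and ISG15 all had lower DMSO levels in IMR5-75 and larger changes there under both drugs. UBE2L6 and PLSCR1 had lower DMSO levels in Be(2)-C and larger changes there, whereas IFI6 had the higher DMSO level and the larger change in IMR5-75. The DMSO call of IFI6 (0.63) was lost without Be(2)-C DMSO library 1 or IMR5-75 DMSO library 2 (adjusted p up to 0.107). The change and the baseline share the same DMSO libraries, so this coincidence is a description.

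**Figure D5:**
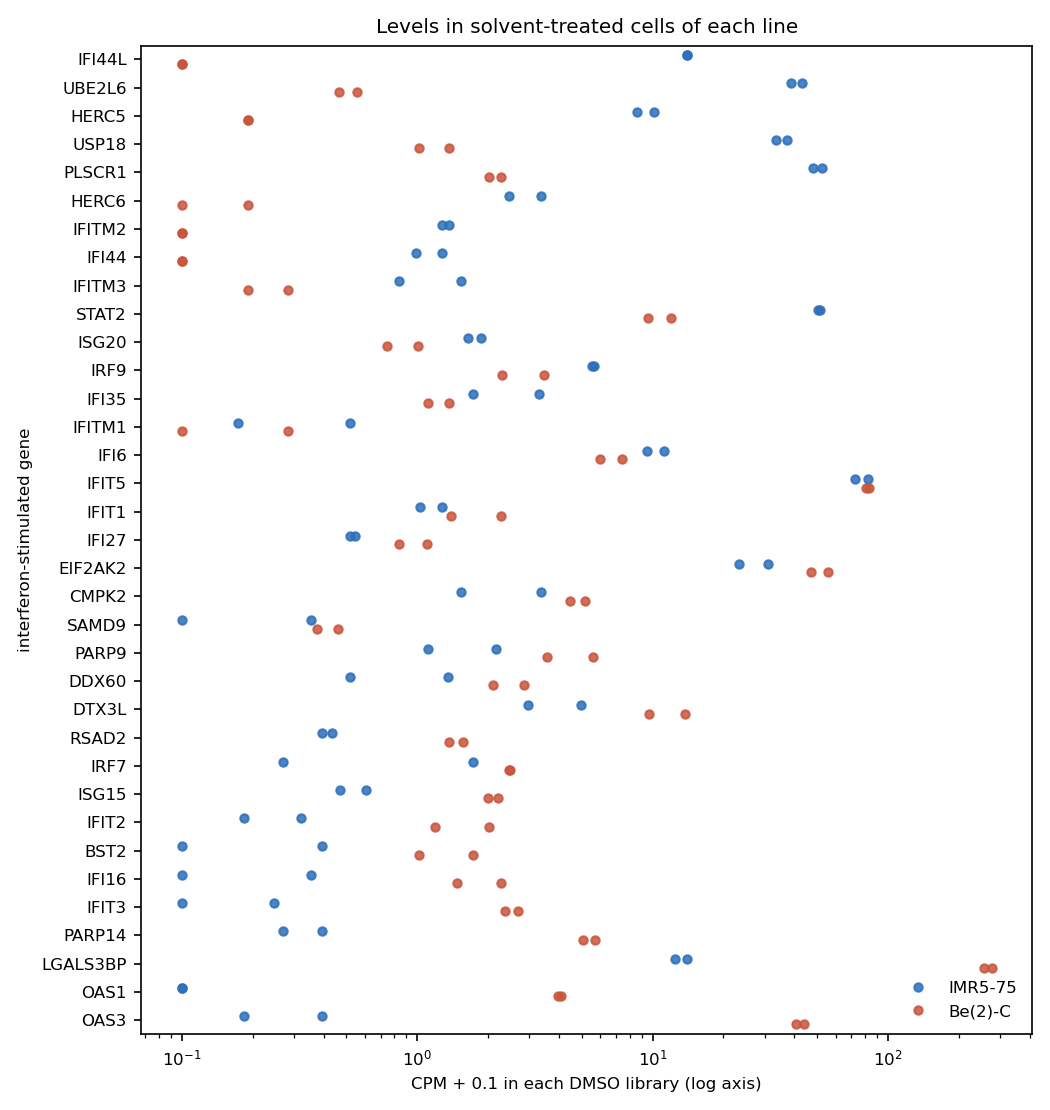
Level of the 35 tested members in each DMSO library of IMR5-75 and Be(2)-C, as CPM plus 0.1 on a log axis, sorted by the difference between the lines. UBE2L6 and PLSCR1 lie near the end that is higher in IMR5-75, and OAS3, PARP14 and LGALS3BP near the end that is higher in Be(2)-C.

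The 9 members that were not tested held few reads in either line. MX1 and MX2, dynamin-like GTPases that block incoming viruses, had 36 and 12 counts over all 16 libraries. GBP1, a guanylate-binding protein, had 39. OAS2 had 41, OASL 7, XAF1 31, SAMD9L 48, TRIM22 13 and EPSTI1 72, and no library held over 8 counts of any of the 9. These genes did not pass the filter on counts. A difference in them was therefore neither shown nor excluded.

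The other genes of the pathway were examined from lists. Among 25 genes of interferons, their receptors and signalling, 16 were tested. Transcripts of the interferons were at the edge of detection, with 4 counts of IFNB1, 1 of IFNA1 and 45 of IFNK over the 16 libraries, while the receptor chains IFNAR1 and IFNAR2 had 7829 and 1405 counts. In IMR5-75, 4 genes rose under DAC and 5 under both drugs, in Be(2)-C 1 and 4, none under EPZ-6438 by edgeR (1 in IMR5-75 and 5 in Be(2)-C with an unadjusted p below 0.05), and none fell. In IMR5-75 this was 25% and 31.2% of the 16, against 19.9% and 25.7% of all genes, and in Be(2)-C 6.25% and 25%, against 3.73% and 13.2%. TYK2 rose by 0.70 and JAK1 by 0.61 under both drugs in IMR5-75, and in Be(2)-C JAK1 rose by 0.58 ± 0.12 and SOCS3, an inhibitor of the pathway, by 1.40 ± 0.28. IRF1, a transcription factor of the interferon response, had 6.80 and 6.94 CPM under DAC in IMR5-75, against 3.46 and 3.87 CPM in DMSO, a rise of 0.91 ± 0.26 (adjusted p = 0.0105).

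Among 23 sensors of nucleic acids and their signalling partners, 14 were tested, and in IMR5-75 4 rose and 1 fell under DAC and 5 rose and 1 fell under both drugs, with none called by edgeR in Be(2)-C (3 with an unadjusted p below 0.05 under both drugs). The genes that rose in IMR5-75 made up 28.6% and 35.7% of the 14, against 19.9% and 25.7% of all genes. DDX58, which encodes the RNA sensor RIG-I, had 12.4 and 10.2 CPM under both drugs in IMR5-75, against 6.71 and 5.97 CPM in DMSO, a rise of 0.83 ± 0.20 (adjusted p = 0.00212). IFIH1, which encodes the RNA sensor MDA5, did not reach the level needed for a test and had at most 0.648 CPM in any library. MYD88, an adaptor of Toll-like receptors, rose by 3.31 ± 0.75 under both drugs (adjusted p = 0.0011). This rests on 59 and 31 counts in IMR5-75, against 2 and 6 in DMSO, and was not examined with libraries left out.

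Among 20 genes of antigen presentation, 16 were tested. In IMR5-75, 8 rose under DAC, 1 under EPZ-6438 and 10 under both drugs, against 19.9%, 1.63% and 25.7% of all genes. In Be(2)-C 2, 4 and 5 rose, against 3.73%, 5.35% and 13.2% of all genes, and none fell in either line. HLA-E, a class I heavy chain, rose by 2.34 under both drugs in Be(2)-C. The HLA genes are close copies of each other, so reads may be split between them. Of 21 chemokines and genes best known as targets of interferon gamma, 9 were tested, and in IMR5-75 3 rose under DAC and 4 rose and 1 fell under both drugs. The genes that rose made up 33.3% and 44.4% of the 9, against 19.9% and 25.7% of all genes. SP110, a nuclear body protein, had 3.81 ± 0.55 under both drugs (adjusted p = 8.5e-06). This rests on 31 and 35 counts in IMR5-75, against 2 and 2 in DMSO, and was not examined with libraries left out. Under both drugs 2 rose and 1 fell in Be(2)-C, against 13.2% and 10.4% of all genes.

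Markers of other cell types were examined in the same libraries, in IMR5-75 first. The 11 fibroblast and endothelial markers summed to 350 to 375 CPM under DAC, 259 to 269 CPM under EPZ-6438 and 549 to 583 CPM under both drugs, against 212 to 213 CPM in DMSO. Of the 9 tested, 6 rose under DAC and 7 under both drugs, against 19.9% and 25.7% of all genes, and 1 fell in each, against 13.8% and 20.4%. The 15 haematopoietic markers summed to 9.77 to 10.5 CPM under DAC, 5.19 to 7.25 CPM under EPZ-6438 and 10.9 to 11.8 CPM under both drugs, against 6.27 to 6.39 CPM in DMSO. COL3A1, a fibroblast collagen, had 428 and 409 CPM under both drugs, against 54.0 and 52.8 CPM in DMSO, and PDGFRA, a growth factor receptor of fibroblasts, had 74.2 and 58.5 CPM, against 139 and 144 CPM. The endothelial marker PECAM1 had at most 0.252 CPM in any library of the line. Of the haematopoietic markers, CD68 had the most counts in every IMR5-75 library, with 87 and 116 under both drugs, against 59 and 54 in DMSO. CD3D, CD3E and HBB had at most 2 counts in any library. PTPRC (CD45), which marks leukocytes, had 2.64 and 1.65 CPM under both drugs, against 0.147 and 0.252 CPM in DMSO. The Be(2)-C sums for fibroblast and endothelial markers were 107 to 116, 83.4 to 88.7 and 140 to 144 CPM under DAC, EPZ-6438 and both drugs, against 119 to 123 CPM in DMSO, and those for haematopoietic markers were 6.50 to 8.80, 4.63 to 5.90 and 6.05 to 7.03 CPM, against 5.71 to 5.97 CPM. Their part in the results above was not tested.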

How the data were processed

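RNA was sequenced from 16 libraries, 8 groups of 2, after ribosomal RNA depletion, with a directional kit and single reads of 50 bases, per the labels' protocols. The authors deposited whole-number read counts per gene symbol. Reads were aligned with TopHat2 2.0.5 and counted with HTSeq 0.5.3p9 on hg19, and DESeq2 was used, per the submitters' processing notes; for the annotation and the strand setting, nothing is given in the sources used here. The counts were tested as deposited with edgeR 4.0.16 in R 4.3.3, in 1 fit of 8 groups with 8 residual degrees of freedom, TMM scaling and filterByExpr (minimum count 10), which kept 15967 genes; 1191 genes had no count in any library. P-values were adjusted over all genes tested. A group at 0 was set to a floor of 3 counts, and ratios against 1 to 3 counts carry 95% intervals; both cover counting error only. Libraries of a group differed by more than sampling noise, with chi-square per degree of freedom of 2.78 to 13.9. Alternatives were DESeq2 size factors, no filter on low counts, DESeq2 1.42.0, the replicate number as a block, fits within a line, and leaving out any library in turn.

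The 44 members, the other gene lists and the roles were chosen with earlier results of these data known. Values in every library are given for up to 6 called members of smallest adjusted p in each treatment, and always for STAT2, IRF7, IRF9, ISG15, BST2 and the 3 IFITM genes; the remaining members were added so that all are accounted for. Promoter sequences are RefSeq's for GRCh38.p14, used for sequence only, with no window for 8 of the 44 members: IFIT2, IFITM2, MX2, OAS2, OASL, USP18, IRF7 and TRIM22. Some genes of the other lists are counted in their lists and not reported here by name.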

Additional observations from a re-analysis of the deposited data

Results flagged for a closer look

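The changes of the following members differed between the lines by a test of the difference itself, IMR5-75 minus Be(2)-C, with edgeR. Under DAC the differences were 3.17 for PARP14, 2.18 for PARP9, 1.21 for LGALS3BP and 1.08 for DTX3L on the log2 scale. Under both drugs they were 3.46 for PARP14, 3.45 for OAS3, 2.21 for ISG15, 1.79 for PARP9, 1.52 for LGALS3BP, 1.27 for DTX3L and 1.00 for IFI6, all larger in IMR5-75, and -2.11 for UBE2L6 and -1.14 for PLSCR1, both larger in Be(2)-C. The calls for PARP9, PLSCR1, DTX3L, IFI6 and ISG15 under both drugs, and for DTX3L under DAC, were lost in some fits with a library left out. For OAS3 and PLSCR1 the change itself was called in opposite directions in the lines. In each line that PLSCR1 call was lost with no filter on low counts, with DESeq2's test and in some fits with a library left out. PARP9 and DTX3L overlap on opposite strands and may share reads. In DMSO, OAS3 in IMR5-75 rests on 5 counts and PARP14 on 6. No cause of these differences was tested.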

How the results depend on the processing

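With all libraries kept, the counts of called members that moved by over 1.5 times were few. In Be(2)-C, each count against DMSO also fell by more than that in at least 1 fit with a library left out. EPZ-6438 in IMR5-75 went to 1 call with DESeq2 size factors, 4 with no filter and 1 with DESeq2's test, and both drugs against DAC in IMR5-75 to 2, 2 and 1; both had 0. The line difference under EPZ-6438 had 1 call with no filter, against 0. In Be(2)-C, both drugs against DAC gave 1 with DESeq2's test, against 3, and both drugs against EPZ-6438 gave 1 with the line fitted alone, against 2. With 1 library left out, the treatment calls ranged from 17 to 21 for DAC, 0 to 1 for EPZ-6438 and 23 to 24 for both drugs in IMR5-75, and from 1 to 3, 3 to 5 and 9 to 10 in Be(2)-C. Both drugs against DAC ranged from 0 to 2 in IMR5-75 and 0 to 1 in Be(2)-C, and against EPZ-6438 from 16 to 21 and 1 to 2. The interactions stayed at 0 to 0, the line differences ranged from 3 to 4, 0 to 0 and 4 to 9 for DAC, EPZ-6438 and both drugs, and the DMSO comparison from 26 to 30. A group left with 1 library takes its spread from the other groups in such a fit. Calls that held under every alternative numbered 12 of 22 for DAC and 19 of 26 for both drugs in IMR5-75, and 0 of 3, 2 of 7 and 8 of 14 in Be(2)-C. DESeq2's test lost PARP9, PLSCR1, IFI35, IFI44L, IFIT3, OAS3 or IFITM1 in at least 1 treatment.

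Some changes that were not called turned sign. IFITM1 under EPZ-6438 in IMR5-75 was 0.0015 with DESeq2 size factors and 0.0105 with the line fitted alone, against -0.0026, and ran from -0.79 to 1.55 with 1 library left out. In the same way IFITM1 under DAC ran from -0.57 to 1.86, and IFITM2 and IRF7 under EPZ-6438 in IMR5-75 from -0.49 to 0.14 and from -1.54 to 1.67. In Be(2)-C under EPZ-6438, BST2 ran from -0.51 to 0.30, IFITM3 from -0.55 to 1.37 and IRF7 from -0.22 to 0.64. The cause was not tested.

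The replicate numbers were not used as pairs in the main fit. Deviations of same-numbered libraries within a line correlated at -0.386 to 0.316, with 2 of 12 over 0.1. Between the lines they correlated at -0.309 to 0.373, with 8 of 16 over 0.1. These values cannot show whether such libraries shared a culture or a preparation. With the replicate number as a block, the treatments gave 18, 0 and 26 calls in IMR5-75 and 3, 6 and 11 in Be(2)-C, both drugs against DAC gave 0 and 2, and both drugs against EPZ-6438 gave 23 and 2. The interactions then gave 0 and 0, the line differences 3, 0 and 8, and the DMSO comparison 27.

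Depth limits members under about 1 CPM, where DMSO groups hold few counts. The IMR5-75 DMSO libraries lie far apart for IRF7, CMPK2, DDX60, IFI35, PARP9 and DTX3L.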
